A study of Mus musculus with 2 samples.

Results

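The genes described here were 32 genes of glycolysis, pyruvate handling and the pentose phosphate pathway, of 13528 genes in the deposited RNA count table. They were chosen by symbol for their role in the pathway and not by a rule on measured values, although earlier results of these data were known. All 32 were in the table. CD45+ immune cells from mouse liver were captured in 2 libraries on the BD Rhapsody system, which counts the transcripts of single cells with unique molecular identifiers (UMIs) and reads 49 antibodies on the same cells. The TG genotype, a mouse model of the bile duct disease primary biliary cholangitis, is dnTGFβRII: on C57BL/6, a human TGF-β receptor II that acts as a dominant negative is driven by the mouse CD4 promoter. The controls were WT C57BL/6 mice, and all mice were 10 weeks old per the labels, while the study's methods give a slightly younger age. The TG library also held cells of IFN-γ ARE-Del-/- mice and the WT library cells of P40-/-IL-2Ra-/- mice, and only the deposited cell table tells the genotypes apart.

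Glycolysis splits glucose into pyruvate in the cytosol. Glucose enters through Slc2a transporters, hexokinase and phosphofructokinase commit it to the pathway, and the enzymes from aldolase to pyruvate kinase yield ATP and pyruvate. Pyruvate is then turned to lactate and exported, or carried into mitochondria for the pyruvate dehydrogenase complex, which pyruvate dehydrogenase kinases such as Pdk1 switch off. The pentose phosphate branch makes NADPH and ribose. Activated and dividing lymphocytes are known for high glycolysis with lactate export, and the transcription factor HIF-1α is a known activator of many of these genes.

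Hypoxia-inducible factors bind DNA with the core letters ACGTG or GCGTG, and only ACGTG was searched for here. The promoters of 4 members on which results below turn are shown first, as the 250 bases before the transcription start in RefSeq (GRCm38.p6), written 5′ to 3′ on the strand of the gene, with capitals for each ACGTG on either strand.
Ldha (chr7:46845554-46845803, plus strand): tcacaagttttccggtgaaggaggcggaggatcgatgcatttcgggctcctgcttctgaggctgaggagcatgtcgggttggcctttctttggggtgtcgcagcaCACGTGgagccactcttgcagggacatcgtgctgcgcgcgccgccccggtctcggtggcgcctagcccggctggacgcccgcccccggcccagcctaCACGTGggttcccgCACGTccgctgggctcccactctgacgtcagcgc
Pgk1 (chrX:106186850-106187099, plus strand): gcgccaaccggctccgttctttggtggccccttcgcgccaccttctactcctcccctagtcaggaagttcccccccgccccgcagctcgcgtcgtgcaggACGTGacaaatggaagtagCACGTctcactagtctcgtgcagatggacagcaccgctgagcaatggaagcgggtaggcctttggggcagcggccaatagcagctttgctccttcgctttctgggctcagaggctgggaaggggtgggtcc
Pkm (chr9:59656977-59657226, plus strand): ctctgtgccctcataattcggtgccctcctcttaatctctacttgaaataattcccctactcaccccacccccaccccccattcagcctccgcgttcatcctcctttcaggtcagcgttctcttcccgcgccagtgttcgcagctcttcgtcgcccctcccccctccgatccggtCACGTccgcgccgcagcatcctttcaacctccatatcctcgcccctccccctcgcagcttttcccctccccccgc
Pdk1 (chr2:71872974-71873223, plus strand): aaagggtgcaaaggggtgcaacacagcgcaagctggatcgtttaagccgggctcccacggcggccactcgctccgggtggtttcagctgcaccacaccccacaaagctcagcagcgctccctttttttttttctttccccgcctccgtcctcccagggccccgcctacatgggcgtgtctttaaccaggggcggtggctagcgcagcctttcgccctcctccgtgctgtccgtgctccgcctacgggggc
The promoter shown for Ldha, the lactate dehydrogenase subunit that favours lactate, held 3 such stretches, that for Pgk1, phosphoglycerate kinase, held 2, that for Pkm, pyruvate kinase, held 1 and that for Pdk1 held 0. The letters GCGTG, which were not counted, do stand in the promoter shown for Pdk1. Ldha, Pkm and Pdk1 have 2 promoters each in the table, of which 1 is shown, and the letters stood in 1 of 2 for Ldha and Pkm and in 0 of 2 for Pdk1. In all, 31 of the 32 members were in the promoter table, and Slc2a3 was not. The letters stood in a promoter of 13 of these 31 (41.9%), against 4998 of 27025 genes (18.5%). Counted by promoter, 5444 of 32851 over all genes held them (16.6%), a share that was not computed for the members. A gene with several promoters, such as Pfkm with 4, has more chances of a match. The E-box CACGTG, which contains the same letters, stood in promoters of 5 of the 31 members (16.1%) and of 6.86% of all genes. Counted by promoter it stood in 6.02% over all genes, again without a share for the members. A match of letters is a description of the sequence and not a binding site, and an empty window says only that these letters are not in it.

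Each genotype was read in 1 library, without replicates, and no test between genotypes was possible. Any difference of TG from WT may belong to the genotype or to the library, which cannot be told apart. The TG library gave 4647 cells with a median of 3298 UMIs and the WT library 7282 cells with a median of 2654, and median mitochondrial shares were 5.14% and 6.03%. Levels are counts per 1000000 UMIs (CPM) summed over a set of cells, with 95% exact Poisson intervals, and differences are log2 ratios of CPM with 95% exact conditional binomial intervals. These intervals cover counting error only. A gene was assessed in a comparison when it had at least 50 UMIs over both sets, and called higher or lower at 1.5-fold or more. The metadata named 14 cell types over 30 clusters, of which 11 types and 22 clusters had at least 20 cells in each genotype. Among the cell labels, 267 occurred in both library files and 36 in both named sets.

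The names of the cell types were held against marker genes. The CD8αβ T class had Cd8b1 at 759 CPM in TG against 882 CPM in WT, and the CD4 T class had Cd4 at 816 CPM and 519.8 CPM. The class named Mono carried neutrophil markers (6 genes, among them S100a8, S100a9 and Cxcr2) at a summed 66699 CPM in TG against 47409.6 CPM in WT, far above its 7 monocyte markers at 2568 CPM and 1988 CPM, with Fn1 and F13a1 at or near 0. It is therefore called the Mono cluster below and not monocytes. The class named immaturate b carried B cell markers at 8874 CPM and 7235 CPM, but the 3 immature B cell markers in the table summed to 19.6 CPM in TG against 46.2 CPM in WT there, below the 151 CPM and 231 CPM of the mature B class, so these markers went against its name and it is called the second B class below. In the class named Macro, 6 of 7 macrophage markers were at 0 in TG, where Adgre1 alone remained. In WT none was at 0 and their sum was 1342 CPM. A minimum in the deposited table can set rare genes to 0. In the library counts of the same TG cells, C1qa, C1qb, C1qc, Cd5l, Vsig4 and Timd4 held 1, 8, 5, 0, 0 and 7 UMIs. The WT cells held 346, 562, 510, 102, 60 and 104. In TG these markers thus went against the name, and it is called the Macro class below. The 5 red blood cell markers in the table summed to 0.865 CPM in TG against 295 CPM in WT over all cells, and the part of these differences in the results below was not tested. UMIs counted to Tgfbr2, the mouse receptor gene, stood at 296 CPM in TG against 153 CPM in WT CD8αβ T cells and at 218 CPM and 232 CPM in mature B cells. They were also higher in TG in the NK class (362 CPM and 143 CPM) and in plasmacytoid dendritic cells (196 CPM and 98.1 CPM). In cluster 4 of the CD8αβ T class they stood at 181 CPM and 184 CPM. Whether transcripts of the human transgene were among them was not tested.

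Over all cells, most members stood at similar levels in both genotypes. Of the 32 members, all of which were assessed, 2 were higher in TG, against 8.67% of the 11782 genes assessed, and 2 were lower, against 7.05%. Their median log2 ratio was 0.11, beside -0.02 over all genes, and their summed level was 3763 CPM in TG against 3503 CPM in WT (log2 ratio 0.10, 0.09 to 0.12). Slc16a3, an exporter of lactate, stood at 21 CPM in TG against 13.2 CPM in WT (0.67, 0.45 to 0.89), and G6pdx, which opens the pentose phosphate pathway, stood at 48.1 CPM and 31.5 CPM (0.61, 0.46 to 0.75). Ldhb, the lactate dehydrogenase subunit that favours pyruvate, stood at 7.57 CPM in TG against 14.2 CPM in WT (-0.91, -1.20 to -0.61), and Pfkm, the muscle form of phosphofructokinase, at 3.84 CPM and 6.03 CPM (-0.65, -1.09 to -0.23). The proportions of the cell types differed between the libraries. When the share of each cluster among the cells was set to the mean of both genotypes, 0 members were higher and 0 lower (5.27% and 4.27% of all genes). Ldhb then had a log2 ratio of -0.05, Slc16a3 of 0.23, G6pdx of 0.34 and the summed level of 0.04.

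**Figure D1:**
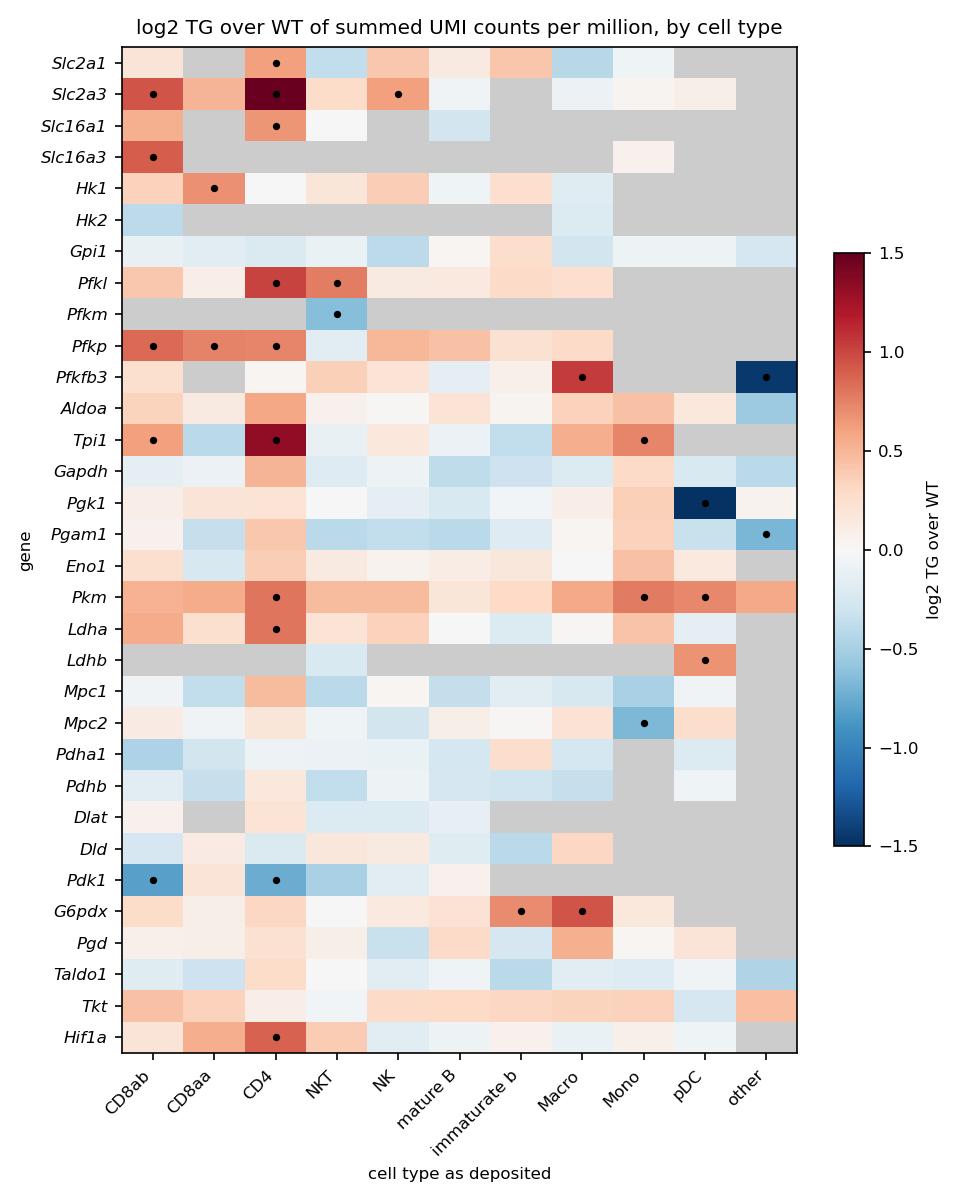
Log2 ratio of TG over WT for each of the 32 genes (vertical axis, in pathway order) in the 11 cell types compared (horizontal axis, as deposited). Colour gives the log2 ratio of CPM, grey marks fewer than 50 UMIs over both genotypes, and black dots mark a difference of 1.5-fold or more. Dots are most frequent in the CD4 T column, with 9 higher and 1 lower, and Pkm is above 0 in all 11 columns.

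Within the 11 cell types 263 pairs of member and type were assessed, of which 24 were higher in TG and 7 lower, against 8.42% and 7.74% of all pairs of gene and type. The largest number of differences was in CD4 T cells. Of 28 members assessed in 238 TG and 734 WT cells, 9 were higher in TG, against 12.9% of all genes, and 1 was lower, against 7.56%. The summed level was 4394 CPM in TG against 3270.1 CPM in WT (log2 ratio 0.43, 0.37 to 0.48), and the median was 0.34, beside 0.07 over all genes. TG cells of the class had a median of 3189 UMIs and a mitochondrial share of 5.37%, against 2438 UMIs and 6.95% in WT. Neutrophil markers summed to 469 CPM in TG against 173 CPM in WT there, NK cell markers to 220.2 CPM and 82.7 CPM and B cell markers to 150.3 CPM and 79.6 CPM, and their part in the values was not tested.

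The members higher in CD4 T cells of TG ranged from glucose uptake to the making and export of lactate. Slc2a3, a glucose transporter with high affinity, stood at 94.7 CPM in TG against 33.9 CPM in WT (log2 ratio 1.48, 0.99 to 1.97). Tpi1, triose phosphate isomerase, stood at 86.4 CPM and 34.4 CPM (1.33, 0.83 to 1.83). Pfkl, the liver form of phosphofructokinase, stood at 41.4 CPM and 20.5 CPM (1.01, 0.31 to 1.70). Each of these 3 rested on 80 UMIs or fewer in each genotype, so their intervals were wide. Pkm stood at 426 CPM in TG against 244 CPM in WT (0.80, 0.60 to 1.01), and Ldha at 505 CPM and 289.7 CPM (0.80, 0.62 to 0.99). Hif1a, which encodes HIF-1α, stood at 154 CPM and 83.2 CPM (0.89, 0.54 to 1.23). The platelet form of phosphofructokinase, Pfkp, had a log2 ratio of 0.73, and the transporters Slc2a1 (0.62, -0.12 to 1.34) and Slc16a1 (0.66, -0.12 to 1.41) had intervals that included 0. With each cell thinned to 1000 UMIs, Slc2a1 had -0.04. Pdk1 went the other way, at 61.6 CPM in TG against 103 CPM in WT (-0.75, -1.22 to -0.30).

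CD4 T cells fell into 3 clusters that the genotypes filled unequally. Cluster 6 held 58 TG and 397 WT cells, cluster 9 held 132 and 272, and cluster 21 held 48 and 65. With equal cluster shares, 7 members were higher and 0 lower in TG (8.60% and 6.43% of all genes), the summed level had a log2 ratio of 0.28 and Pdk1 one of -0.00, an analysis chosen after the data were seen. Within each cluster the summed level was still above that of WT, with log2 ratios of 0.21 (0.08 to 0.34) in cluster 6, 0.31 (0.23 to 0.39) in cluster 9 and 0.27 (0.13 to 0.40) in cluster 21. In cluster 9, 4 of 20 members were higher (8.85% of all genes) and 2 lower (8.19%). Ldha stood there at 593 CPM in TG against 346 CPM in WT (0.78, 0.53 to 1.03) and Pkm at 414 CPM and 249 CPM (0.74, 0.44 to 1.03). The lower ones were Gpi1, glucose phosphate isomerase (-0.64, -1.02 to -0.28), and Pgd, the phosphogluconate dehydrogenase of the pentose branch (-0.66, -1.47 to 0.09). Cluster 6 had 3 of 17 members higher (11.9% of all genes), namely Pgd, Tkt (transketolase, of the pentose branch) and Hif1a, and 0 lower (12.2%). Cluster 21 had 2 of 11 higher (10.7%), Aldoa (aldolase) at 539 CPM and 274 CPM and Pkm at 569 CPM and 308 CPM, and 0 lower (10.3%). CD44 antibody, which marks experienced T cells, made up 4.31% of antibody counts in TG and 1.92% in WT cells of cluster 6 and 11.5% and 10.2% in those of cluster 9.

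In CD8αβ T cells the differences were fewer. Of 30 members assessed in 1020 TG and 819 WT cells, 4 were higher in TG (9.43% of all genes) and 1 was lower (6.22%). Slc2a3 stood at 82.0 CPM in TG against 42.7 CPM in WT (log2 ratio 0.94, 0.66 to 1.23), Pfkp at 108 CPM and 60.0 CPM (0.85, 0.61 to 1.10) and Tpi1 at 94.1 CPM and 61.7 CPM (0.61, 0.37 to 0.86). Slc16a3 rested on 39 and 12 UMIs (0.91, -0.05 to 1.98), and 3 cells held 41.7% of those in WT. Pdk1 stood at 39.8 CPM in TG against 70.5 CPM in WT (-0.82, -1.11 to -0.54). The summed level was 4068 CPM and 3646 CPM (0.16, 0.12 to 0.19). TG cells of the class were deeper, with medians of 4557 UMIs in TG and 2996 in WT. Markers of other cells also differed, with NK cell markers at 1093 CPM in TG against 467 CPM in WT, monocyte markers at 1765 CPM and 942 CPM, neutrophil markers at 312 CPM and 148 CPM and dendritic cell markers at 143 CPM and 33.0 CPM. Plasma cell markers (142 CPM and 408 CPM) and red blood cell markers (0.377 CPM and 187 CPM) were lower in TG, and the part of these markers in the values was not tested. With each cell thinned to 1000 UMIs, Slc2a3 had a log2 ratio of 1.34, Tpi1 of 0.85 and Pdk1 of -0.90, but Pfkp fell below 1.5-fold at 0.23 and Slc16a3 turned to -0.32. Without cells that carried both B and T cell markers, 2 of 28 members were higher (9.57% of all genes) and 1 lower (5.94%), with Slc2a3 at 0.85, Pfkp at 0.78 and Tpi1 at 0.56.

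These values moved when the clusters of the class were left out or weighted otherwise. The proliferating cluster 7, in which 12 cell cycle genes summed to 10238 CPM in TG against 10049 CPM in WT, held 319 of the TG and 132 of the WT cells. Cluster 4, in which the same genes summed to 769 CPM and 881 CPM, held 145 and 363. Without cluster 7, 3 of 28 members were higher (8.70% of all genes) and 1 lower (5.73%), the summed level had a log2 ratio of 0.19, Slc2a3 of 1.24, Pfkp of 0.65, Tpi1 of 0.25 and Pdk1 of -0.65. With equal shares of all clusters, 3 of 30 were higher (6.30%) and 1 lower (5.77%). The summed level then had -0.04, Tpi1 0.14 and Pdk1 -0.06, and Slc2a3 fell just below 1.5-fold at 0.58, while Pfkp had 0.62, Slc16a1 0.69, Slc16a3 0.71 and Hk2 -0.69. The analysis with equal shares was also chosen after the data were seen. Its shares are of cells, and UMIs were then pooled, so a cluster with deeper cells still weighed more. Cluster 4 had medians of 4961 UMIs per cell in TG and 2764 in WT, and cluster 7 of 7454 and 6614. Pdk1 was lower in TG within each of clusters 4, 7, 12 and 13, as given below. The -0.06 is thus not a mean of its ratios within clusters. Cells of the class also held Cd4. At least 1 UMI of Cd4 was found in 39.7% of TG and 13.9% of WT cells of the class, in 16.6% and 3.86% of those in cluster 4 and in 56.7% and 40.2% of those in cluster 7. Cells with Cd4 and with 0 UMIs of Cd8a and Cd8b1 made up 15.6% and 8.18% of the class, 0.690% and 1.10% of cluster 4 and 32.3% and 29.5% of cluster 7. In mature B cells, which should lack the gene, 5.15% and 5.29% held a Cd4 UMI, at medians of 2923 and 2045 UMIs per cell. The share was also higher in TG in CD8αα T cells (28.5% and 2.58%) and NK cells (44.1% and 2.76%). Summed CD4 T cell markers were higher in TG in both of these classes too, as given below, but that sum includes Cd4 itself beside Cd40lg and Izumo1r. In CD8αα T cells Cd4 stood at 113 CPM in TG against 10.9 CPM in WT and Cd40lg at 32.5 CPM and 16.4 CPM. Izumo1r was lower in TG there, at 11.3 CPM and 16.4 CPM. In the CD8αβ class Cd40lg (16.8 CPM and 17.6 CPM) and Izumo1r (27.2 CPM and 48.6 CPM) were not higher in TG. Whether the cells with Cd4 in these classes or in the CD8αβ class were CD4 T cells was not tested. Without the cells that held Cd4, 2 of 28 members were higher (8.20%) and 1 lower (5.84%), with log2 ratios of 0.98 for Slc2a3, 0.83 for Pfkp and -0.67 for Pdk1, again an analysis chosen later.

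The class had 5 clusters with enough cells to compare, 4, 7, 12, 13 and 18, while cluster 23 had 15 TG and 76 WT cells. Slc2a3 was higher in TG in clusters 4, 12, 13 and 18 and Pfkp in clusters 4 and 7, and no other member was higher in more than 1 of them. Pfkp stood at 131 CPM in TG against 67.1 CPM in WT in cluster 7 (0.97, 0.57 to 1.38) and at 80.3 CPM and 42.9 CPM in cluster 4 (0.90, 0.32 to 1.5). Slc2a3 stood at 42.9 CPM and 22.9 CPM in cluster 4 (0.91, 0.09 to 1.74), at 163 CPM and 59.2 CPM in cluster 12 (1.46, 0.64 to 2.42) and at 41.3 CPM and 20.7 CPM in cluster 13 (1.00, -0.03 to 2.16). In cluster 4, 3 of 23 members were higher (6.88% of all genes) and 2 lower (10.3%). Besides Slc2a3 and Pfkp, the higher ones included Slc2a1 on 28 UMIs in TG and 25 in WT (0.70, with an interval that included 0). The lower ones were the pyruvate dehydrogenase subunits Pdhb (-0.64, -1.21 to -0.10) and Dld (-0.78, -1.66 to 0.03). In cluster 7, 1 of 28 was higher (9.45%) and 2 were lower (6.67%). The lower ones were Pdha1, the catalytic subunit of pyruvate dehydrogenase, at 68.6 CPM in TG against 107 CPM in WT (-0.63, -1.0 to -0.26) and Pdk1 (-0.61, -1.30 to 0.11). Gapdh, the glyceraldehyde phosphate dehydrogenase, stood at 970.3 CPM in TG against 1336 CPM in WT cells of cluster 7, a difference below 1.5-fold, and the summed level of the members there was slightly lower in TG (-0.07, -0.12 to -0.03). Cluster 12 had 2 of 18 members higher (14.7%), Slc2a3 and Tkt, and 2 lower (8.92%), Pdha1 (-0.77) and Taldo1, the transaldolase (-0.65). Cluster 13 had 2 of 21 higher (8.46%), Slc2a3 and the lactate and pyruvate transporter Slc16a1 (1.00, 0.26 to 1.81), and 0 lower (8.98%). Cluster 18, with 115 TG and 37 WT cells, had 2 of 12 higher (14.4%), Slc2a3 on 44 and 6 UMIs (0.67, -0.57 to 2.19) and Pkm (1.14, 0.28 to 2.13), and 1 lower (11.2%), Pdha1 (-0.90, -1.81 to 0.07).

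Within a library, clusters of the CD8αβ class can be compared without the confounding of genotype and library. The clusters were made from the same transcripts, and the differences are a description. Cluster 7 was mixed in its markers. Cd8b1 was found in 113 of its 319 TG and 43 of its 132 WT cells, against 136 of 145 and 320 of 363 in cluster 4. Many cells of cluster 7 held Cd4, as given above. The part of this mixture in the values was not tested. In TG, 17 of 28 members were higher in cluster 7 than in cluster 4, against 36.9% of all genes, and 2 were lower, against 14.9%. The lower ones were Pdk1 and Slc2a1 (-0.85, -1.54 to -0.13), the latter at 0.67 with each cell thinned to 1000 UMIs. Slc2a1 rested on 52 UMIs in cluster 7 and 28 in cluster 4. In WT, 14 of 24 were higher, against 29.7%, and 1 was lower, against 17.9%. The median log2 ratio was 0.69 in TG, beside 0.29 over all genes, and 0.72 in WT, beside 0.16. Cells of cluster 7 held more UMIs, with medians of 7454 in TG and 6614 in WT, than those of cluster 4, with 4961 and 2764. When ribosomal protein and mitochondrial genes were left out of the totals, 11 members were higher and 4 lower in TG (24.6% and 24.8% of all genes) and 9 higher and 2 lower in WT (21% and 27.4%). Without cells that held Cd4, 13 of 22 were higher (35.1%) and 2 lower (16.2%) in TG. In WT 13 of 23 were then higher (28.7%) and 1 lower (19.7%), an analysis chosen after the data were seen.

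The steps from triose phosphate to lactate were higher in cluster 7 in both genotypes. Tpi1 stood at 155 CPM in cluster 7 and 36.0 CPM in cluster 4 of TG (log2 ratio 2.11, 1.53 to 2.74) and at 119 CPM and 33.4 CPM in WT (1.84, 1.28 to 2.43). Gapdh stood at 970.3 CPM and 425 CPM in TG (1.19, 1.02 to 1.37) and at 1336 CPM and 454 CPM in WT (1.56, 1.40 to 1.71). Ldha stood at 540.4 CPM and 242 CPM in TG (1.16, 0.93 to 1.39) and at 411 CPM and 187 CPM in WT (1.14, 0.89 to 1.39). Pgk1, Pgam1 (phosphoglycerate mutase), Eno1 (enolase) and Pkm were also higher, with log2 ratios from 0.61 to 0.95 in TG and from 1.07 to 1.35 in WT. In the pentose branch Tkt had log2 ratios of 0.97 and 1.30 and Taldo1 of 0.81 and 0.82. Among the first steps the members differed from one another. Slc2a3 had log2 ratios of 0.93 in TG and 1.41 in WT, Pfkp of 0.71 and 0.65 and Hk1 of 0.82 and 0.25, while Gpi1 had -0.12 and 0.09 and Aldoa -0.01 and 0.49. Pfkl had 1.56 in TG and was not assessed in WT. Members with ACGTG in a promoter were higher in 5 of 10 cases in TG and 5 of 8 in WT. Those without it were higher in 11 of 17 and 8 of 15, against 36.9% and 29.7% of all genes. Lower were 1 of 10 and 0 of 8 with it and 1 of 17 and 1 of 15 without it, against 14.9% and 17.9%. The shares among all genes with and without these letters were not computed.

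**Figure D2:**
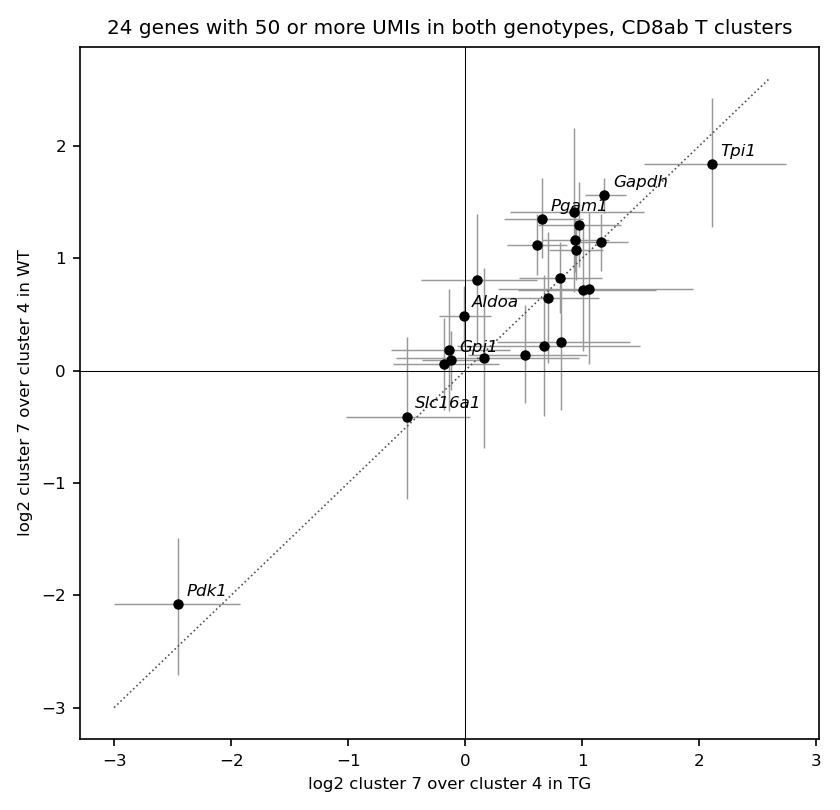
Log2 ratio of cluster 7 over cluster 4 in TG (horizontal axis) and in WT (vertical axis) for the 24 genes with at least 50 UMIs in both genotypes. Points are genes, bars are 95% counting intervals and the dotted line marks equal ratios. Tpi1 lies furthest to the upper right and Pdk1 alone lies far to the lower left.

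Pdk1, the kinase that inactivates pyruvate dehydrogenase, was the only member lower by 1.5-fold or more in cluster 7 than in cluster 4 in both genotypes. In CD8αβ T cells of TG it was at 111 CPM in cluster 4, 60.9 CPM in cluster 13, 20.3 CPM in cluster 7 and 8.17 CPM in cluster 12. In WT the same clusters had 131 CPM, 70.3 CPM, 30.9 CPM and 13.7 CPM, in the same order. The log2 ratio of cluster 7 over cluster 4 was -2.45 (-3.0 to -1.92) in TG and -2.08 (-2.71 to -1.49) in WT, and that of cluster 12 over cluster 4 was -3.76 (-5.25 to -2.58) and -3.26 (-5.55 to -1.68), the latter on 3 UMIs in cluster 12. CD4 T cells showed the same order, with 189 CPM in TG against 167 CPM in WT in cluster 6 and 23.1 CPM and 37.7 CPM in cluster 9. Cluster 9 over cluster 6 was assessed in WT alone (-2.15, -2.78 to -1.57). Among clusters 4, 6, 7, 9, 12 and 13, CD44 antibody was lowest in 4 and 6, at 5.59% in TG and 1.66% in WT for cluster 4. It was at 9.09% and 9.38% for cluster 7, 8.33% and 7.68% for cluster 13 and 6.43% and 7.95% for cluster 12. Cluster 12, with the lowest Pdk1 of these CD8αβ clusters, thus did not have the highest CD44. The comparisons with clusters 12, 13 and 9 were added after the data were seen.

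**Figure D3:**
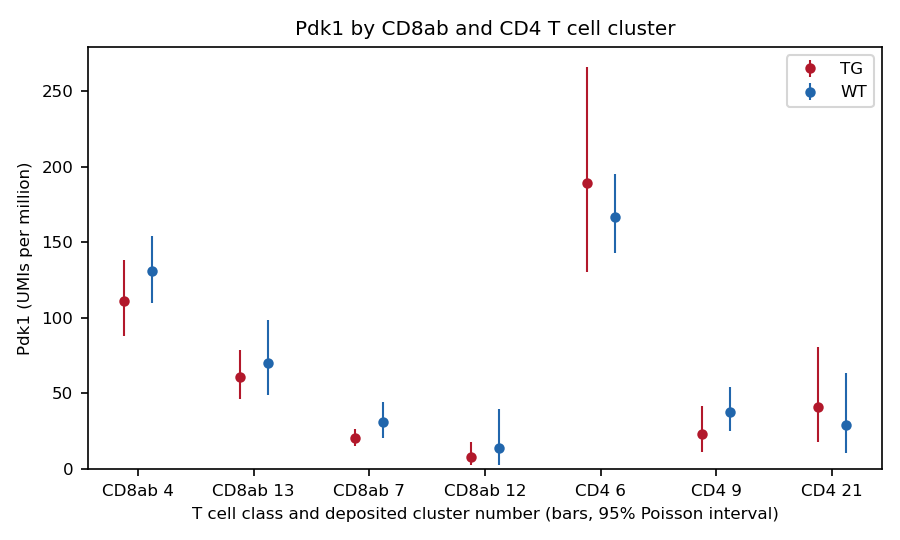
Pdk1 level in CPM (vertical axis) in 4 clusters of CD8ab T cells and 3 clusters of CD4 T cells (horizontal axis), in TG (red) and WT (blue), with 95% Poisson intervals. Cluster 4 (111 and 131 CPM) and cluster 6 (189 and 167 CPM) stand above the other clusters of their class in both genotypes.

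The same pairs of clusters were then read for the whole list. Cluster 12 over cluster 4 had 5 of 21 members higher in TG (31.0% of all genes) and 2 lower (11.3%), and 8 of 19 higher in WT (22.2%) and 1 lower (15.8%). Cluster 13 over cluster 4 had 3 of 24 higher (9.40%) and 1 lower (4.31%) in TG and 2 of 20 higher (8.90%) and 1 lower (7.48%) in WT. Cluster 9 over cluster 6 had 7 of 14 higher (26.1%) and 0 lower (11.1%) in TG and 11 of 22 higher (18.5%) and 1 lower (7.63%) in WT. In each of the WT pairs the lower member was Pdk1. In TG the 2 lower members of cluster 12 over cluster 4 were Pdk1 and Slc16a1.

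Pkm was the member with the most even difference between the libraries. Its level was higher in TG in 11 of 11 cell types and in 22 of 22 clusters, with log2 ratios from 0.18 to 0.80 over the types and from 0.07 to 1.14 over the clusters. The interval lay above 0 in 10 types and in 16 clusters. The difference reached 1.5-fold in 3 types, CD4 T cells, the Mono cluster (1252 CPM in TG against 727 CPM in WT, 0.78, 0.60 to 0.97) and plasmacytoid dendritic cells (pDC, 232 CPM and 141 CPM, 0.72, 0.27 to 1.15). In pDC the TG value rested on 65 UMIs, and at 1000 UMIs per cell the log2 ratio was -0.38. Mature B cells had 163 CPM and 144 CPM (0.18, -0.00 to 0.35). Gapdh went the other way in 9 of 11 types, with log2 ratios between -0.41 and 0.51, and stood at 270.0 CPM in TG against 350.4 CPM in WT mature B cells (-0.38, -0.50 to -0.25). The exceptions were CD4 T cells (0.51) and the Mono cluster (0.29). Gapdh had an interval below 0 in 6 types and above 0 in 2, and reached 1.5-fold in 0 types and 0 clusters. With each cell thinned to 1000 UMIs it was below 0 in 8 of 11.

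Cells without a genotype name were also read in the same 2 libraries. They may be cells of the IFN-γ ARE-Del-/- mice in the first library and of the P40-/-IL-2Ra-/- mice in the second, mixed with TG or WT cells that were left out, and the files do not say which. A contrast of the libraries in these cells is then also one between genotypes. B and T cells were gated by transcripts in the library files. Among these cells the first library over the second had a log2 ratio of Pkm of 0.37 (0.20 to 0.55) in B cells and 0.32 (0.26 to 0.38) in T cells, beside 0.43 (0.26 to 0.60) and 0.49 (0.41 to 0.57) in the named cells through the same gates. Gapdh had -0.51 (-0.62 to -0.39) and -0.47 (-0.52 to -0.43) in cells without a name, beside -0.23 and -0.10 in named cells. Slc2a3 (0.82, 0.69 to 0.94) and Pfkp (0.34, 0.22 to 0.45) were also higher in the first library in T cells without a name. So were Hif1a (0.40, 0.28 to 0.52), Tpi1 (0.39, 0.26 to 0.52), Pfkl (0.23, 0.02 to 0.43) and Ldha (0.12, 0.05 to 0.18), while Slc2a1 had 0.11 (-0.10 to 0.32). In B cells without a name Slc2a3 went the other way (-0.84, -1.37 to -0.33). Pdk1 had 0.05 (-0.14 to 0.24) in T cells without a name, beside -0.62 (-0.83 to -0.42) in named T cells. Ldhb turned, with 1.23 (0.92 to 1.54) in T cells without a name and -0.74 (-1.14 to -0.36) in named ones, and so did Slc16a1, with -0.75 (-1.01 to -0.50) and 0.80 (0.52 to 1.08). The T cell gate took 1906 named TG cells, of which 76.2% were T cells by annotation, and 3646 named WT cells, of which 94.9% were.

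**Figure D4:**
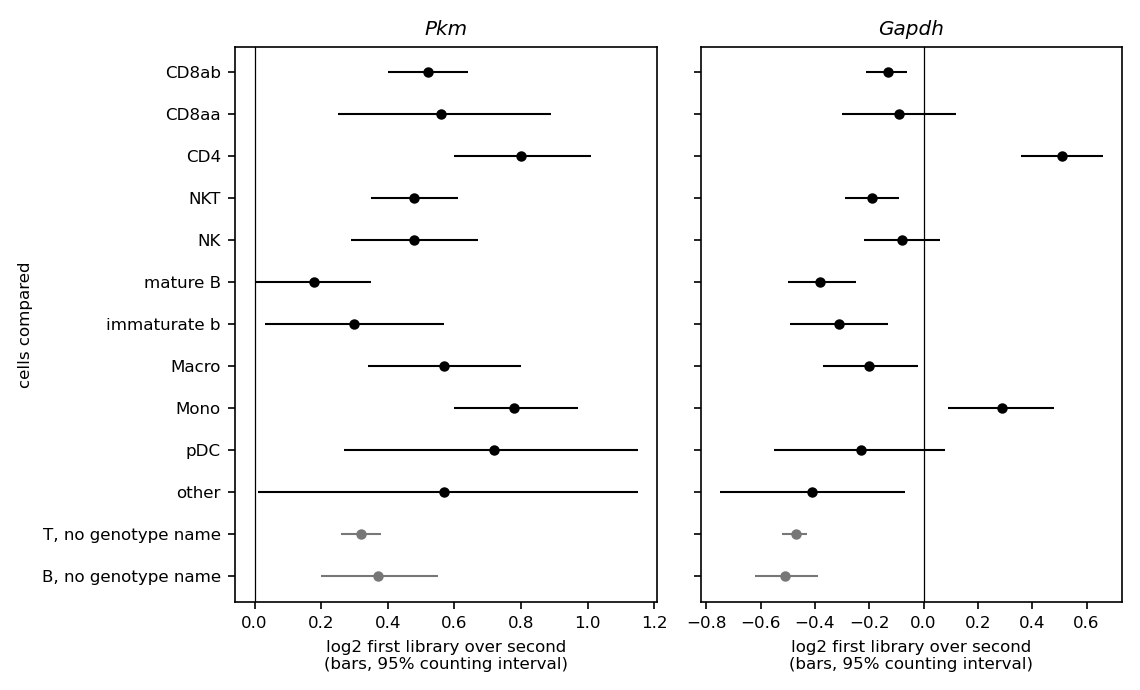
Log2 ratio of the first library over the second (horizontal axis) for Pkm (left) and Gapdh (right), for TG over WT in the 11 cell types compared (black) and for B and T cells without a genotype name (grey). Bars are 95% counting intervals. Pkm lies above 0 for every set shown and Gapdh below 0 for all but CD4 T cells and the Mono cluster.

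In the other classes few members differed. Of 28 members assessed in mature B cells 0 were higher (3.99% of all genes) and 0 lower (5.91%), and the summed level was 2308 CPM in TG against 2361 CPM in WT (log2 ratio -0.03, -0.08 to 0.01). The second B class had 1 of 24 higher (6.37%), G6pdx at 45.0 CPM and 27.5 CPM (0.71, 0.03 to 1.42), and 0 lower (7.41%). NKT cells had 1 of 30 higher (7.24%), Pfkl at 48.1 CPM and 28.3 CPM (0.77, 0.38 to 1.14), and 1 lower (5.52%), Pfkm, whose interval included 0 (-0.64, -1.66 to 0.25). In NKT cells CD4 T cell markers summed to 965 CPM in TG against 485 CPM in WT, neutrophil markers to 671 CPM and 313 CPM and B cell markers to 119 CPM and 44.7 CPM. The class named NK had 1 of 27 higher (7.15%), Slc2a3 at 114 CPM and 74.7 CPM (0.61, 0.30 to 0.94), and 0 lower (8.76%). The NK class was filled unequally, with cluster 11 holding 343 of 759 TG cells and 22 of 615 WT cells, and Slc2a3 had log2 ratios of 0.19 (-0.28 to 0.66) in its cluster 3, 0.71 (0.05 to 1.37) in cluster 8 and -0.09 (an interval from -1.17 to above 1) in cluster 11. The class named CD8αα T had 2 of 24 higher (9.57%) and 0 lower (6.33%). They were Hk1, the widely expressed hexokinase, at 109 CPM and 67.3 CPM (0.69, with an interval above 0), and Pfkp at 91.4 CPM and 54.5 CPM (0.74, 0.16 to 1.37). In that class γδ T cell markers summed to 106 CPM in TG against 862 CPM in WT and CD4 T cell markers to 157 CPM and 43.6 CPM. Red blood cell markers there summed to 0.755 CPM in TG against 4893 CPM in WT, and in NK cells to 1.31 CPM and 1703 CPM. T cell markers summed to 4576 CPM in TG against 2136 CPM in WT in the NK class, and CD4 T cell markers to 359.7 CPM and 26.2 CPM. NK cell markers were lower in TG there, at 6219 CPM and 8898 CPM, so the class was mixed in its markers in TG. They summed to 5141 CPM and 6222 CPM in the CD8αα class. The part of the markers in the values of the NKT, NK and CD8αα classes was not tested.

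Among myeloid classes the Macro class had 2 of 26 members higher in TG (11.8%) and 0 lower (8.16%). Pfkfb3, which makes the activator of phosphofructokinase, stood at 96.4 CPM in TG against 46.4 CPM in WT (1.05, 0.52 to 1.58), and G6pdx at 94.8 CPM and 49.3 CPM (0.94, 0.41 to 1.47). The class joined 3 clusters, of which cluster 22 held 20 TG and 80 WT cells and cluster 27 held 0 and 23. In the class, monocyte markers summed to 4478 CPM in TG against 8934 CPM in WT and platelet markers to 1.63 CPM and 206 CPM. NK cell markers were higher in TG, at 3790.3 CPM and 2491 CPM, and the part of these markers in the values was not tested. In the largest cluster of the class, 15, with 89 and 158 cells, Pfkfb3 stood at 115 CPM and 41.2 CPM (1.48, 0.79 to 2.20) and G6pdx at 102 CPM and 61.8 CPM (0.72, 0.08 to 1.36), so both were also higher there. The Mono cluster had 2 of 19 members higher (9.50%), Pkm and Tpi1 (0.73, -0.11 to 1.61), and 1 lower (10.8%), Mpc2, a subunit of the mitochondrial pyruvate carrier (-0.67, -1.38 to 0.03). In pDC 2 of 18 were higher (7.39%), Pkm and Ldhb (99.8 CPM and 62.9 CPM, 0.67, -0.03 to 1.32), and 1 was lower (10.1%). That was Pgk1, at 32.1 CPM in TG against 89.5 CPM in WT (-1.48, -2.65 to -0.50) on 9 and 94 UMIs. Cells named other had 0 of 9 higher (12.8%) and 2 lower (28.7%), Pfkfb3 (108 CPM and 296 CPM, -1.45, -2.08 to -0.83) and Pgam1 (-0.69, -1.48 to 0.10), and 3 cells held 76.3% of the Pfkfb3 UMIs in TG and 50% of those in WT. Without cells that carried both B and T cell markers, Pfkfb3 in that class had -0.15.

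The order of the cell types by summed level was nearly the same in both genotypes. Neutrophils were highest, at 10910.2 CPM in TG against 9872 CPM in WT, then the Mono cluster (8348 CPM and 7340.0 CPM), basophils (5977 CPM and 5594 CPM) and the Macro class (4819.5 CPM and 4556 CPM), and the intervals of these 4 did not overlap within a genotype. Neutrophils (54 TG and 17 WT cells) and basophils (45 and 16) were too few for a comparison of genotypes. Mature B cells were lowest. CD4 T cells held place 5 in TG and place 8 in WT, and NKT cells place 8 in TG and place 5 in WT. Below the Macro class many neighbours had intervals that overlapped, such as CD4 and γδ T cells in TG and CD4 T and NK cells in WT.

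**Figure D5:**
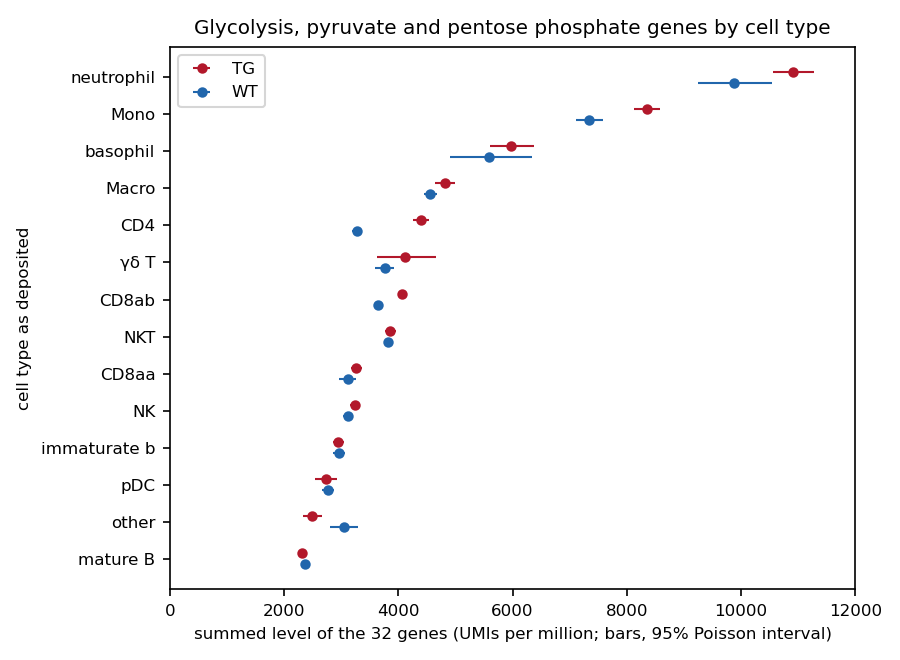
Summed level of the 32 genes in CPM (horizontal axis) in 14 cell types as deposited (vertical axis), in TG (red) and WT (blue), with 95% Poisson intervals. Neutrophils and the Mono cluster lie highest in both genotypes (7340.0 CPM or more) and mature B cells lie lowest, and the genotypes are furthest apart among T cells in the CD4 class.

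Members reached their highest level in different types. In the Mono cluster Taldo1 stood at 1401 CPM in TG against 1602 CPM in WT, and the lactate exporter Slc16a3 at 389.5 CPM and 371 CPM. The glucose transporters Slc2a1 (124 CPM and 130.1 CPM) and Slc2a3 (451 CPM and 440.1 CPM) were also highest there among types with at least 20 cells. Slc16a1 was highest in CD8αβ T cells (47.1 CPM and 32.6 CPM), Pdk1 in CD4 T cells (61.6 CPM and 103 CPM) and Ldhb in pDC, in both genotypes. Neutrophils of TG had the highest level of 9 members, among them G6pdx (636 CPM), Pgd (953 CPM) and Gapdh (1354 CPM).

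Isoenzymes were divided unequally between the classes. Shares are of the UMIs of the genes named, with Clopper-Pearson intervals, and are not corrected for transcript length. Ldhb made up 37.8% of Ldha and Ldhb UMIs in TG pDC (26.8% to 49.9%) and 26.0% in WT pDC (20.7% to 31.8%), but 0.246% and 1.80% in mature B cells and 6.37% and 8.46% in NKT cells. Hk2, the inducible hexokinase, made up 74.2% (62.0% to 84.2%) and 74.7% (67.6% to 81.0%) of Hk1 and Hk2 in the Macro class and 3.23% and 3.39% in NK cells. Slc16a3 made up 100% and 98.5% of the 2 Slc16a transporters in the Mono cluster and 13.5% and 10.7% in CD8αβ T cells. Slc2a1 made up 76.9% and 73.7% of the 2 glucose transporters in the second B class and 5.0% and 9.46% in pDC. In CD8αβ T cells its share was 24.1% (20.6% to 27.8%) against 34.8% (28.3% to 41.8%), a gap of -10.7 percentage points (-18.3 to -3.50 by Newcombe's method), and in CD4 T cells it was 25.9% and 38.9% (-13.0 points, -24.9 to -0.479). The clusters of these classes, which the genotypes filled unequally, differed from this. The gap was -3.56 points in cluster 4, -8.83 in cluster 7 and -9.15 in cluster 13, and 3.30 the other way in cluster 12, all with intervals that included 0. Among CD4 T clusters it was 6.35 points in cluster 6 (-18.6 to 31.8) and -21.0 in cluster 9 (-37.0 to -3.21). Pfkp made up 76.3% and 71.6% of the 3 phosphofructokinase genes in CD8αβ T cells and 46.4% and 57.7% in NKT cells (-11.3 points, -19.4 to -3.05). Over the 14 types and these 5 shares, the interval of the difference lay off 0 in 12 of 70 cases. Besides those given for Slc2a1 and Pfkp, Slc2a1 had a lower share in TG in CD8αα T cells (11.9% and 23.5%) and NKT cells (18.4% and 26.2%), Hk2 in the second B class (16.7% and 34.0%), and Pfkp in the cells named other (60.0% and 100%). Ldhb had a lower share in TG in CD4 T cells (1.39% and 5.05%), CD8αβ T cells (1.06% and 2.88%) and mature B cells but a higher one in pDC, and Slc16a3 had a higher share in TG in mature B cells (26.7% and 10.4%).

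Hk2 (-0.25), Mpc1, the other subunit of the pyruvate carrier (-0.13), Dlat, the acetyltransferase of pyruvate dehydrogenase (-0.12), and Dld (-0.09) were below 0 over all cells. None of these 4 was called in any cell type, and of them Dld alone was called in a cluster, the cluster 4 given above. Reads of Eno1 and Aldoa can be shared with the near-identical copies Eno1b (21.3 CPM in TG against 17.6 CPM in WT) and Aldoart1 (2.54 CPM and 0.720 CPM), and Hk1 overlaps the antisense gene Hk1os (2.87 CPM and 2.79 CPM).

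Genes around the pathway were read beside the members. Of 57 further genes of glucose and pyruvate handling 44 were in the table. Over all cells 3 of the 40 assessed were higher in TG and 5 lower (8.67% and 7.05% of all genes), in CD8αβ T cells 0 of 28 higher and 2 lower (9.43% and 6.22%), and in CD4 T cells 0 of 19 higher and 4 lower (12.9% and 7.56%). Emb, which encodes embigin, a partner of Slc16a1 at the membrane, stood at 122 CPM in TG against 254 CPM in WT over all cells (-1.06, -1.14 to -0.99) and at 175 CPM and 477 CPM in CD8αβ T cells (-1.45, -1.57 to -1.33). Bsg, which encodes basigin, another such partner, went the other way but below 1.5-fold. It stood at 139.7 CPM and 116 CPM over all cells (0.27, 0.19 to 0.35) and at 169 CPM and 122 CPM in CD8αβ T cells (0.48, 0.30 to 0.65). Hk3, a hexokinase of myeloid cells, stood at 13.9 CPM and 6.30 CPM over all cells (1.14, 0.84 to 1.45). Within classes it stood at 117 CPM and 128 CPM in the Mono cluster, 282 CPM and 218 CPM in neutrophils, 254 CPM and 231 CPM in basophils and 42.5 CPM and 14.3 CPM in the Macro class, and neutrophils (54 TG and 17 WT cells) and basophils (45 and 16) were more numerous in TG. Mlxipl, a glucose-responsive transcription factor, had 0 UMIs in TG and 77 in WT (0 and 3.47 CPM), and the minimum in the deposited table can give such a 0. Myc, another activator of the pathway, stood at 91.6 CPM and 101 CPM over all cells and at 63.6 CPM and 82.2 CPM in CD8αβ T cells (-0.37, -0.61 to -0.13). Of 14 HIF targets outside the pathway, 0 of 12 were higher and 1 lower over all cells, 0 of 9 and 2 in CD8αβ T cells, and 1 of 8 and 1 in CD4 T cells, against the same shares of all genes. Ndrg1 was among the lower ones in CD8αβ T cells, at 6.41 CPM and 14.0 CPM (-1.13, -1.82 to -0.45). In cluster 7 over cluster 4, 8 of 18 further pathway genes were higher and 5 lower in TG (36.9% and 14.9% of all genes), and 2 of 14 and 4 in WT (29.7% and 17.9%), while 12 of 12 cell cycle genes were higher in both.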

How the data were processed

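Counts of UMIs per gene and cell were deposited by the authors, who ran the BD WTA Multiplex Rhapsody Analysis Pipeline 1.9 on mm10 per the submitters' processing notes, and who then filtered cells and genes in a joined table by rules not given in the sources used here. That table was used for all cells named TG or WT, and 0 of its per-sample columns were left unmapped. The percent of mitochondrial counts, the genotype, the cell type name and the cluster of each cell were used as deposited by the authors. The cells of each genotype were taken from the library whose label names it.

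For each genotype the UMI counts of a set of cells were added up per gene and scaled to the total of that set. Log2 ratios have exact conditional binomial intervals, levels exact Poisson intervals and shares Clopper-Pearson intervals, all at 95%. Calls needed 1.5-fold, 50 UMIs over both sets and 20 cells per genotype. A set at 0 UMIs was put at 3 counts over the set. With 1 library per genotype no test was run, and a cell is no replicate. Doublets were not called: 15.3% of TG and 6.52% of WT cells carried 2 or more UMIs of B cell and of T cell markers, and an alternative leaves them out. Other alternatives were TMM factors (edgeR 4.0.16, R 4.3.3), totals without ribosomal protein and mitochondrial genes, equal weight per cell, minimums of 20 and 1 UMIs, thinning to 1000 UMIs per cell, 5/4-fold, equal cluster shares, leaving out cluster 7 and leaving out cells with Cd4. Equal cluster shares are shares of cells, and UMIs were then pooled, so clusters with deeper cells still weighed more. The calculations were tested on simulated data.

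The members and the gene lists were chosen with earlier results of these data known. Named in the text are all 32 members, further pathway genes and HIF targets that differed 2.0-fold or more over all cells or in CD8αβ T cells at 50 UMIs or more, Myc and Bsg, beside genes used as markers or near-identical copies. Cells without a genotype name were gated by at least 3 UMIs of 3 B or 3 T cell genes and 0 of the other. Calculations used Python 3.11.15, numpy 2.4.6, scipy 1.17.1 and pandas 2.3.3.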

Additional observations from a re-analysis of the deposited data

Results flagged for a closer look

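Pfkfb3, which makes the activator of phosphofructokinase, differed in opposite directions in a pair of classes, with a log2 ratio of TG over WT of 1.05 in the Macro class and -1.45 in the cells named other. The difference between the classes was not tested. In the cells named other, 38 TG and 29 WT cells in all, the value rested on 38 and 58 UMIs, of which 3 cells held 76.3% and 50%, and the log2 ratio was -0.15 without cells that carried both B and T cell markers.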

How the results depend on the processing

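No paired analysis was possible because each genotype was 1 library. Of 112 counts of called members under alternatives, 77 stayed within 1.5 times the reported count and 35 did not. The cause of these changes was not tested, except that thinning leaves fewer genes at 50 UMIs. Percentages in brackets are the shares of all genes called the same way under the same setting. Over all cells (2 higher, 2 lower in TG), 0 were higher with equal weight per cell (8.88%) or with thinning (7.15%), 0 and 0 were called with equal cluster shares (5.27% and 4.27%), and 6 and 4 at 5/4-fold (17.1% and 16.7%). Over the 11 cell types (24 and 7 of 263), 15 of 307 were lower at a minimum of 20 UMIs (11.1%), 42 and 23 of 351 were higher and lower with no minimum (15.2% and 14.2%), and 63 and 34 of 263 at 5/4-fold (20.3% and 19.2%). In CD8αβ T cells (4 and 1), 7 were higher with equal weight (13.5%), 2 without cells of both B and T cell markers (9.57%) and 2 without cells with Cd4 (8.20%). There 2 were lower at a minimum of 20 (8.23%), with no minimum (11.9%) or with thinning (6.92%), and 11 and 3 were called at 5/4-fold (22.8% and 16.4%). In CD4 T cells (9 and 1), 0 were lower with equal weight (7.57%) or equal cluster shares (6.43%), 3 at a minimum of 20 (9.81%) and 4 with none (10.8%), and 5 of 18 were higher with thinning (12.2%) and 14 at 5/4-fold (28.3%). For cluster 7 over 4 in TG (17 and 2), 4 were lower with TMM factors (18.8%) or at 5/4-fold (22.9%), 11 and 4 were called with totals without ribosomal protein and mitochondrial genes (24.6% and 24.8%), and 6 and 0 of 10 with thinning (40.4% and 18%). In WT (14 and 1), 9 and 2 were called with those totals (21% and 27.4%), 4 of 11 were higher with thinning (27.1%) and 2 lower at 5/4-fold (27.9%).

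Of 2292 log2 ratios under alternatives 2087 stayed within the reported counting interval, 198 left it and 7, of called members or summed levels, turned in sign. A further 147 changes of sign, also counted in the other numbers, were of members not called, such as Pgk1 over all cells (0.07, and -0.05 with equal cluster shares). With thinning the 7 included Slc2a1 in CD4 T cells (-0.04), Slc16a3 in CD8αβ T cells (-0.32), Pkm in pDC (-0.38) and Slc2a1 in cluster 7 over 4 of TG (0.67), some of them entering more than 1 list. With equal cluster shares, the summed level in CD8αβ T cells had -0.04. Depth limited the smaller classes most, with 9 to 19 members at 50 UMIs in the cells named other, pDC and the Mono cluster.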
